A study of Caenorhabditis elegans with 30 samples.

Results

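The inducible cytosolic heat shock genes of *C. elegans* form a set of 9 genes: the small heat shock protein genes *hsp-16.1*, *hsp-16.11*, *hsp-16.2*, *hsp-16.41*, *hsp-16.48* and *hsp-16.49*, and the Hsp70 genes *hsp-70*, F44E5.4 and F44E5.5. They were chosen by name, and all 9 have an entry among the 46726 gene IDs of the count data. Whole wild type nematodes were transferred as L4 larvae to plates with 100μM of the thymidine analogue AZT, d4T or FLT, to plates with the solvent DMSO (0.033%), or to plates with no addition (unexposed), and RNA was sequenced after 72h or 24h in 3 biological replicates per group. The 3 analogues were dissolved in DMSO and differ on the sugar, where AZT carries an azido group, d4T a double bond and FLT a fluorine. All cultures were fed OP50 bacteria, eggs were removed with a mesh before freezing, and 72h cultures were moved to fresh plates daily. A whole nematode pools all tissues, so that a level per nematode tissue and the number of cells of that tissue cannot be told apart.

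Heat shock proteins are chaperones, which hold or refold proteins that lose their shape. The transcription factor HSF-1 switches on the genes of this set when misfolded proteins build up in the cytosol, as after heat. The HSP-16 proteins are small chaperones with an α-crystallin domain that bind unfolding proteins without ATP, and Hsp70 proteins use ATP to refold them. In unstressed nematodes these genes are known to be almost silent, and *hsp-16.2* in particular is a common reporter of heat and oxidative stress.

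Most of these loci lie head to head or in copies (WBcel235 coordinates). *hsp-16.2* (WBGene00002016, chromosome V, 1804334 to 1804957, minus strand) and *hsp-16.41* (WBGene00002018, chromosome V, 1805178 to 1805875, plus strand) are transcribed away from each other, with 220 bases between them. *hsp-16.1* (WBGene00002015, 9087293 to 9087782, minus strand), *hsp-16.48* (WBGene00002019, 9088131 to 9088617, plus strand), *hsp-16.49* (WBGene00002020, 9089280 to 9089766, minus strand) and *hsp-16.11* (WBGene00002017, 9090077 to 9090604, plus strand) follow each other on the same chromosome as an inverted duplication of near-identical copies. F44E5.4 (WBGene00009691, chromosome II, 11757107 to 11759311, minus strand) and F44E5.5 (WBGene00009692, 11759662 to 11761861, plus strand), also close copies, have 350 bases between them. *hsp-70* (WBGene00002026, chromosome I, 9320325 to 9322519, minus strand) lies wholly inside an intron of *uggt-2*, which is read from the other strand.

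Counts over the 30 libraries differed widely between members. *hsp-16.41* had 6521 counts and *hsp-16.2* 5148, with at least 1 count in every library. F44E5.5 had 188 counts and F44E5.4 had 171, and these were at 0 in 1 and 9 libraries. The other 5 members were almost without reads. *hsp-16.48* had 11 counts, of which 4 were in unexposed 24h replicate 2 and 4 in unexposed 72h replicate 3, *hsp-16.11* had 2, *hsp-16.1* and *hsp-16.49* had 1 each, and *hsp-70* had 0 in all 30 libraries. Reads that aligned to more than 1 place were counted for no gene and made up 7.53 to 23.6% of the reads of a library (median 11.6%). Whether reads of the near-identical *hsp-16.1* and *hsp-16.48* copies are among them was not tested. A count of 0 allows up to 3 counts, or 0.098 to 0.265 CPM in these libraries, for counting error only. For *hsp-70* this limit does not bound its expression: of 421 protein-coding genes that lie wholly inside a gene on the other strand and share no exon with it, 367 (87.2%) had 0 counts in every library, against 409 of 19002 protein-coding genes (2.15%) that lie in no other. These 5 members are therefore given by their counts and were not tested.

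Total counts on genes were 11.3 to 30.6 M per library (median 23.95 M), with the lowest total in FLT 72h replicate 2. Levels are given as CPM, that is counts scaled to a common library total with TMM factors. Tests are edgeR's quasi-likelihood test over 16048 genes with enough counts, with 3 libraries per group in 1 fit of all 30, where a gene was called at a Benjamini-Hochberg adjusted p under 0.01. Of the 9 members 4 were tested. *hsp-16.2* and *hsp-16.41* reached the level the filter asks for (0.417 CPM in 3 libraries) in 29 libraries each, F44E5.5 in 6 and F44E5.4 in 4, of which 3 were FLT 72h libraries for each Hsp70 gene. F44E5.4 thus passed only through FLT at 72h, so that its values in comparisons with that group are given as a description with no p, and a count of called members is no support for a change of the set. Each exposure had a sequencing lane of its own for both times, and FLT was on another flow cell, so that at a given time the effects of lane and exposure cannot be told apart. d4T 24h replicate 2 stood apart from the other d4T 24h libraries. Its summed level of 12 oocyte and germline markers was 10500 CPM against 2470 and 2610 CPM, and that of 12 markers of moulting larvae 229 CPM against 943 and 951 CPM. Ribosomal RNA genes took 5.777% of the counts in AZT 72h replicate 1 and 4.985% in d4T 24h replicate 1 (median 0.675%).

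*hsp-16.2* was highest with FLT at 72h. It stood at 51.1, 17.3 and 11.6 CPM with FLT and at 28.8, 6.74 and 4.72 CPM with d4T. With AZT it stood at 8.55, 4.67 and 5.52 CPM, with DMSO at 2.69, 2.96 and 2.60 CPM and in unexposed nematodes at 3.50, 2.25 and 4.02 CPM. At 72h every analogue library lay above every DMSO and unexposed library, and the spread between replicates was far wider with FLT and d4T than with DMSO, since replicate 1 of each was the highest library. The means were 26.7 ± 21.3 CPM with FLT and 2.75 ± 0.186 CPM with DMSO (SD, n = 3 each). On the log2 scale *hsp-16.2* rose by 3.27 with FLT against DMSO (SE 0.72; edgeR adjusted p = 0.0025). With d4T its log2 ratio to DMSO was 2.28 (SE 0.70; edgeR adjusted p = 0.019) and with AZT 1.18 (SE 0.69; edgeR adjusted p = 0.14), and neither was called. Without d4T 72h replicate 1 the ratio with d4T was 1.06 (edgeR adjusted p = 0.27). The call with FLT was lost without FLT 72h replicate 1, at a log2 ratio of 2.39 (edgeR adjusted p = 0.029), and also without any 1 of the DMSO 72h libraries, at 3.23 to 3.33 (edgeR adjusted p = 0.014 to 0.017).

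*hsp-16.41*, the divergent neighbour of *hsp-16.2*, followed the same order of groups at 72h. It stood at 62.3, 18.8 and 15.4 CPM with FLT and at 34.2, 9.79 and 7.34 CPM with d4T. With AZT it stood at 9.91, 5.06 and 7.03 CPM, with DMSO at 4.46, 4.36 and 5.06 CPM and in unexposed nematodes at 6.99, 4.51 and 5.37 CPM. The FLT and d4T libraries lay above every control library, whereas the lowest AZT library met the highest DMSO library. The log2 ratio to DMSO was 2.80 with FLT (SE 0.79; edgeR adjusted p = 0.016), which missed the threshold, while DESeq2 called it (2.80, adjusted p = 0.0062). Without FLT 72h replicate 1 it was 1.88 (edgeR adjusted p = 0.13). With d4T it was 1.88 (SE 0.77; edgeR adjusted p = 0.069), or 0.89 without d4T 72h replicate 1 (edgeR adjusted p = 0.44), and with AZT 0.66 (SE 0.76; edgeR adjusted p = 0.45).

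**Figure D1:**
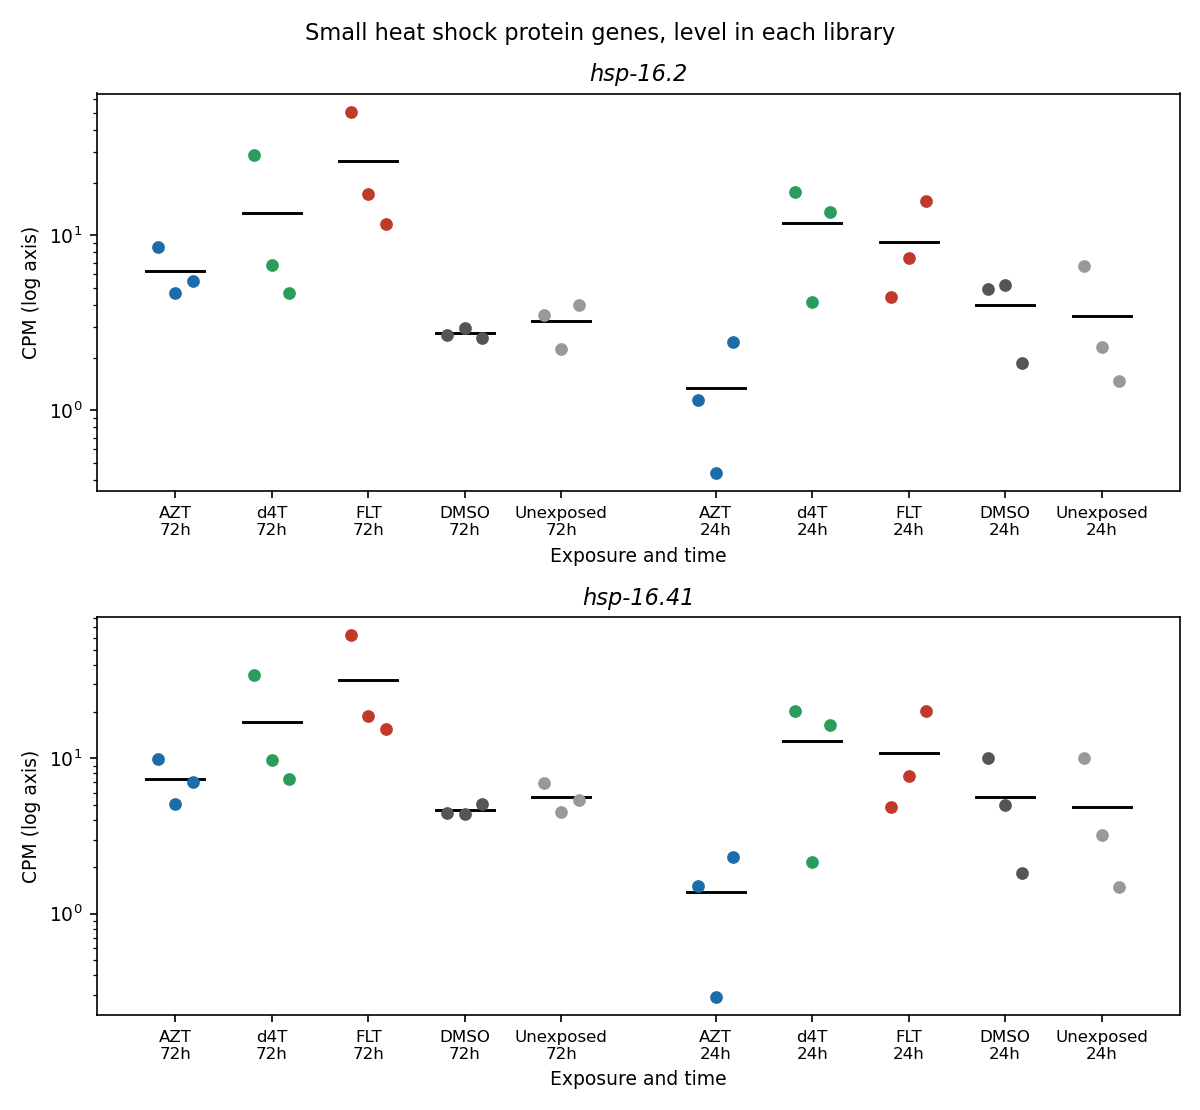
Level of *hsp-16.2* (top) and *hsp-16.41* (bottom) in each of the 30 libraries, in CPM on a log axis, by exposure and time. Points are libraries and bars group means (n = 3), and at 72h the FLT libraries, at 11.6 to 51.1 CPM for *hsp-16.2*, lie above all DMSO and unexposed libraries.

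The Hsp70 genes F44E5.4 and F44E5.5 had few counts in most libraries and were highest with FLT at 72h. F44E5.4 had 60, 7 and 11 counts in the FLT 72h libraries, against 0 in each DMSO 72h library and 4, 5 and 0 in unexposed ones. F44E5.5 had 67, 7 and 15 counts with FLT, against 2, 2 and 1 with DMSO and 1, 3 and 4 in unexposed nematodes. In CPM, F44E5.4 stood at 3.91, 0.592 and 0.631 with FLT, and F44E5.5 at 4.36, 0.592 and 0.861, and FLT replicate 1 was again the highest library. All 3 FLT libraries lay above every other 72h library for both genes. Scaled to depth, the 78 counts of F44E5.4 over the FLT group were 43.3-fold above the 3 counts that the 0 of all DMSO 72h libraries together allows. This ratio holds neither the error of the 78 counts nor the spread between libraries, so that it is no lower bound. Without FLT 72h replicate 1, 18 counts were left and the ratio was 15.2-fold, and without 1 of the DMSO 72h libraries it was 27.6 to 29.5-fold. F44E5.5 rose by 4.74 on the log2 scale (SE 1.07; edgeR adjusted p = 0.0032). Since the copies may share reads, their counts were also summed, and the log2 ratio of the sum to DMSO was 5.65. The sum holds the counts of F44E5.4, which passed the filter only through FLT at 72h, so that it is given with no p. F44E5.5 was not called without FLT 72h replicate 1, at a log2 ratio of 3.34 (edgeR adjusted p = 0.052), nor without any 1 of the DMSO 72h libraries.

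With d4T and AZT at 72h the counts of this pair were lower than with FLT. With d4T, F44E5.4 had 8, 7 and 0 counts and F44E5.5 had 13, 7 and 1, and with AZT F44E5.4 had 2, 6 and 5 counts and F44E5.5 had 3, 1 and 1. The AZT group of F44E5.4, with 13 counts, was 4.05-fold and the d4T group, with 15 counts, 4.41-fold above the floor of the DMSO libraries. When 1 library was left out these were 2.59 to 5.30-fold with AZT and 2.81 to 6.67-fold with d4T. The error of these few counts is not in the ratios, and neither group was called (edgeR adjusted p = 0.043 with AZT and 0.071 with d4T). For F44E5.5 the log2 ratio to DMSO was 1.82 with d4T (SE 1.16; edgeR adjusted p = 0.24) and -0.10 with AZT (SE 1.39; edgeR adjusted p = 0.95).

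**Figure D2:**
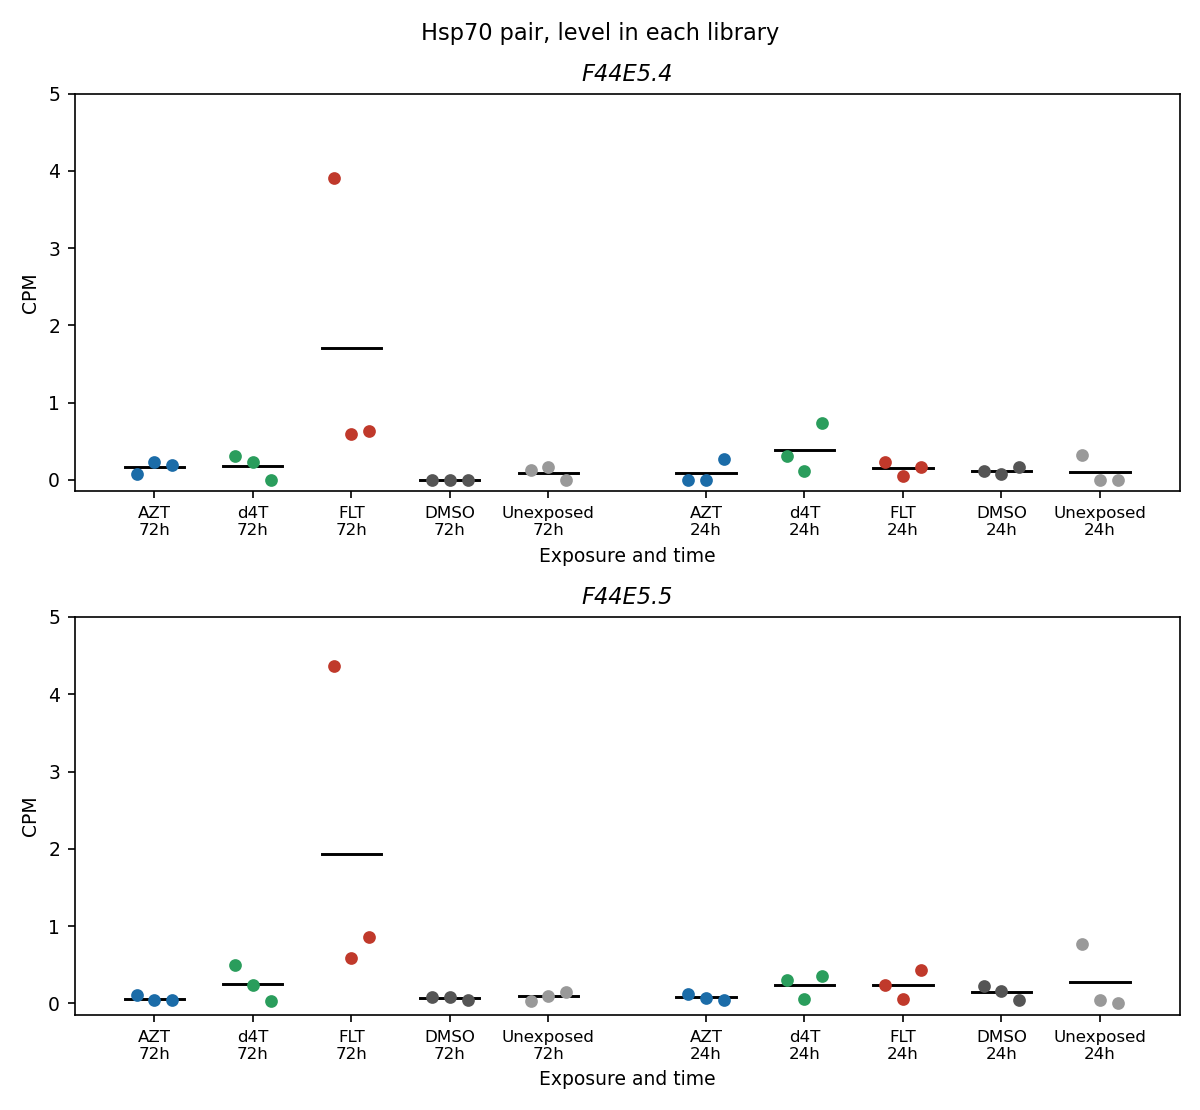
Level of F44E5.4 (top) and F44E5.5 (bottom) in each library in CPM, by exposure and time, with points for libraries and bars for group means (n = 3). The 3 FLT 72h libraries, at 0.592 to 3.91 CPM for F44E5.4, lie above all other 72h libraries, and 1 of them lies far above the rest.

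At 72h *hsp-16.2* and F44E5.5 rose with FLT, where 4.52% of all genes tested were called higher and 3.54% lower. None was called with d4T at 72h (5.82% of all genes higher and 5.86% lower), with 3 of the 4 higher at a raw p under 0.05, or 0 without d4T 72h replicate 1, and 0 called by DESeq2. None was called with AZT at 72h either (27.2% higher and 21.6% lower), with 1 higher at a raw p under 0.05 and 0 called by DESeq2. Both genes were also called against unexposed nematodes, where 5.96% of all genes were called higher. There the log2 ratio was 3.03 for *hsp-16.2* (edgeR adjusted p = 0.0027) and 4.38 for F44E5.5 (edgeR adjusted p = 0.0024). Summed levels of the 12 moulting larva markers were 239 to 271 CPM with FLT, 260 to 347 CPM with d4T and 560 to 685 CPM with AZT at 72h, against 131 to 148 CPM with DMSO and 166 to 198 CPM in unexposed nematodes. Of these 12 markers 2 were called higher with FLT against DMSO. Those of 9 intestine markers were 16600 to 32000 CPM with FLT, against 11500 to 14500 CPM with DMSO and 26700 to 35000 CPM in unexposed nematodes, with 1 called higher. Those of 8 muscle markers were 963 to 1130 CPM with FLT, against 652 to 783 CPM with DMSO and 594 to 707 CPM in unexposed nematodes, with 4 called higher. For 10 embryo markers the sums were 1980 to 2350 CPM with FLT, against 3510 to 3970 CPM with DMSO and 1580 to 1870 CPM in unexposed nematodes, with 4 of the 8 tested called lower. *med-1* and *nos-2* were at 0 in each of these groups, and *hlh-27* also with DMSO. For 10 sperm markers they were 13.5 to 19.2 CPM with FLT, against 7.36 to 9.3 CPM with DMSO and 5.12 to 6.90 CPM in unexposed nematodes, with 1 of the 7 tested called higher and *msd-1* at 0. None of the 12 oocyte and germline markers was called. The part of tissue and stage in these results was not tested.

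At 24h no member was called against DMSO with any analogue. *hsp-16.2* stood at 1.15, 0.437 and 2.46 CPM with AZT, at 17.6, 4.16 and 13.6 CPM with d4T and at 4.43, 7.48 and 15.8 CPM with FLT, against 4.95, 5.24 and 1.86 CPM with DMSO and 6.68, 2.29 and 1.48 CPM in unexposed nematodes. *hsp-16.41* stood at 1.51, 0.291 and 2.33 CPM with AZT, at 20.3, 2.16 and 16.37 CPM with d4T and at 4.84, 7.73 and 20.1 CPM with FLT, against 10.01, 5.03 and 1.82 CPM with DMSO and 9.997, 3.20 and 1.48 CPM in unexposed nematodes. The groups overlapped, and the DMSO and unexposed libraries varied among themselves more at 24h than at 72h. The low library of d4T was the replicate 2 that stood apart, and the high library of FLT, replicate 3, also had the highest moulting larva markers of its group (1030 CPM, against 399 and 549 CPM). With AZT the log2 ratio to DMSO was -1.50 for *hsp-16.2* (95% interval -3.03 to 0.04) and -1.94 for *hsp-16.41* (-3.68 to -0.21). With d4T these were 1.56 (0.16 to 2.96) and 1.22 (-0.34 to 2.78), and with FLT 1.21 (-0.20 to 2.61) and 0.97 (-0.59 to 2.53).

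The Hsp70 pair stayed at 0 to 19 counts per library at 24h. The highest was F44E5.4 in d4T 24h replicate 3 with 19 counts, and F44E5.5 had its highest count of the 24h libraries, 17, in an unexposed one. Adjusted p-values of the 4 members at 24h, from edgeR, were 0.082 to 0.94 with AZT, 0.14 to 0.69 with d4T and 0.195 to 0.90 with FLT. At a raw p under 0.05, 1 member was lower with AZT, 1 higher with d4T and 0 differed with FLT, and DESeq2 called 0. Over all genes tested, 1.07% were called higher and 9.15% lower with AZT, 4.07% and 2.24% with d4T, and 5.74% and 9.39% with FLT.

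**Figure D3:**
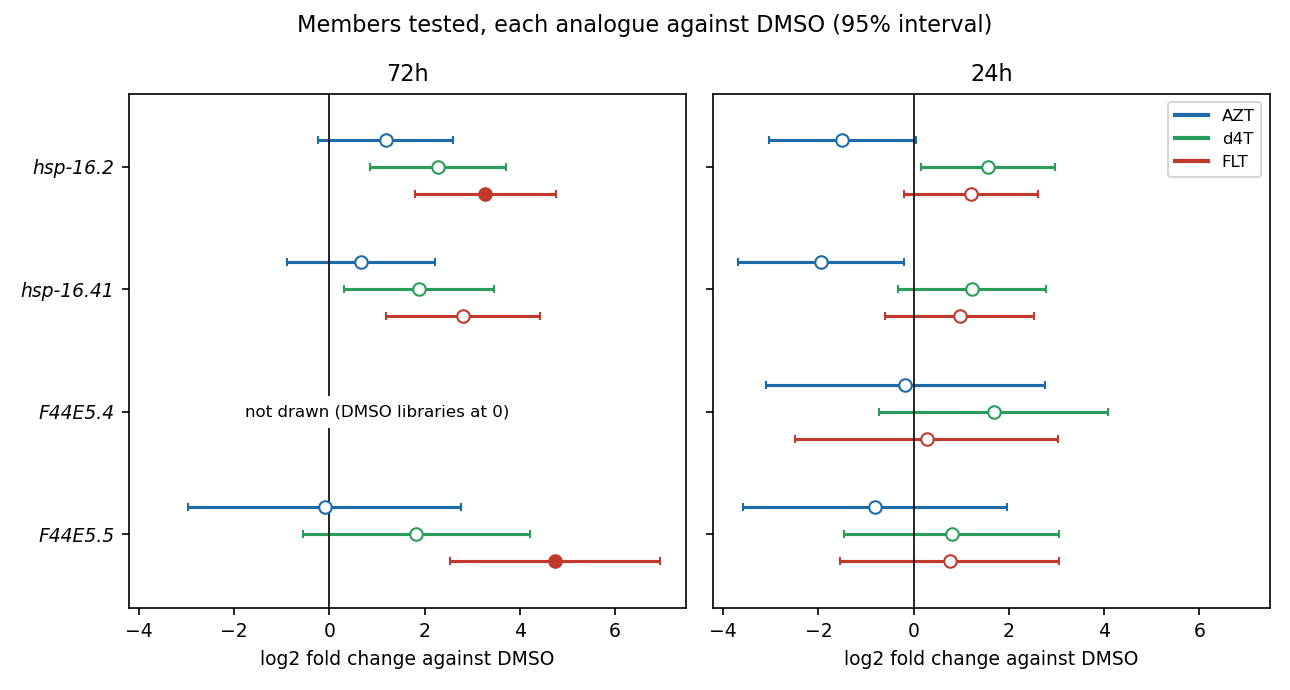
Log2 fold change of the 4 members tested against DMSO with AZT, d4T and FLT, at 72h (left) and 24h (right), with 95% intervals from edgeR. Filled points were called at an adjusted p under 0.01 (*hsp-16.2* and F44E5.5 with FLT at 72h), and F44E5.4 is not drawn at 72h, since its DMSO libraries were at 0 and a fitted fold has no base.

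The analogues were set against each other at the same dose and time in 6 pairs. At 72h F44E5.5 was lower with AZT than with FLT by a log2 difference of -4.84 (95% interval -7.05 to -2.64; edgeR adjusted p = 6.8e-04), where 18.3% of all genes tested were called lower. For F44E5.4 the difference was -3.34. *hsp-16.2* (-2.09, 95% interval -3.49 to -0.70) and *hsp-16.41* (-2.13, -3.70 to -0.57) did not pass in this pair (edgeR adjusted p = 0.012 for *hsp-16.2* and 0.020 for *hsp-16.41*), and DESeq2 called *hsp-16.2* (adjusted p = 0.0065) as well as F44E5.5. Without FLT 72h replicate 1 none of the 4 was called, at -3.44 for F44E5.5 (edgeR adjusted p = 0.014), -1.21 for *hsp-16.2* and -1.22 for *hsp-16.41*. F44E5.5 was called without any 1 of the AZT 72h libraries.

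No member was called between d4T and either of the other analogues at 72h. Between d4T and FLT the log2 difference was -0.99 for *hsp-16.2* (95% interval -2.34 to 0.35), -0.91 for *hsp-16.41* (-2.42 to 0.59), -3.22 for F44E5.4 and -2.92 for F44E5.5 (-4.78 to -1.05), where 11.2% of all genes were called. F44E5.5 differed there at a raw p under 0.05, but no member did without FLT 72h replicate 1, and DESeq2 called 0 of the 4. Between AZT and d4T the difference was -1.10 (-2.46 to 0.26), -1.22 (-2.75 to 0.31), -0.12 (-2.48 to 2.24) and -1.93 (-4.30 to 0.44) in the same order of genes, where 12% of all genes were called. None of the 4 had a raw p under 0.05 there, and DESeq2 called 0.

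At 24h *hsp-16.2* and *hsp-16.41* were called lower with AZT than with both other analogues. *hsp-16.2* was lower with AZT than with d4T by a log2 difference of -3.06 (95% interval -4.60 to -1.51; edgeR adjusted p = 0.0032) and *hsp-16.41* by -3.16 (-4.91 to -1.41; edgeR adjusted p = 0.0054), where 20% of all genes were called lower. All AZT libraries of *hsp-16.2* lay below all d4T libraries, while for *hsp-16.41* d4T replicate 2 lay within the AZT range. Against FLT the differences were -2.70 for *hsp-16.2* (-4.24 to -1.16; edgeR adjusted p = 0.0040) and -2.91 for *hsp-16.41* (-4.66 to -1.17; edgeR adjusted p = 0.0058), where 23.1% of all genes were called lower, and all AZT libraries lay below all FLT libraries for both genes. In each of these pairs 2 of the 4 members tested were called lower, on a background in which many genes were. Of 10 small heat shock protein genes outside the set, 6 were also called lower with AZT than with d4T. Against FLT 6 of these 10 were called lower and 1 higher.

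Single libraries bore on these calls. Without d4T 24h replicate 2, the difference between AZT and d4T was -3.38 for *hsp-16.2* (edgeR adjusted p = 7.9e-04) and -3.58 for *hsp-16.41* (edgeR adjusted p = 0.0011). Both calls against d4T were lost without AZT 24h replicate 1 or 2 or d4T 24h replicate 1 or 3, and in a fit of these groups alone (edgeR adjusted p = 0.13 for each), and *hsp-16.41* also without AZT 24h replicate 3 (edgeR adjusted p = 0.011). Both calls against FLT were lost without AZT 24h replicate 1 or 2 or FLT 24h replicate 3. No member was called between d4T and FLT at 24h (0.35, 95% interval -1.002 to 1.71, for *hsp-16.2* and 0.25, -1.27 to 1.77, for *hsp-16.41*), where 5.83% of all genes were called. None of the 4 had a raw p under 0.05 there, and DESeq2 called 0. Summed moulting larva markers at 24h were 190 to 247 CPM with AZT, against 229 to 951 CPM with d4T and 399 to 1030 CPM with FLT. Of these 12 markers 8 were called lower against d4T, and against FLT 7 were called lower and 1 higher. Oocyte and germline markers summed to 7690 to 9470 CPM with AZT, against 2470 to 10500 CPM with d4T and 1100 to 2550 CPM with FLT, with 0 of 12 called against d4T and 12 higher against FLT. Intestine markers summed to 34200 to 42200 CPM with AZT, against 48100 to 127000 CPM with d4T and 42200 to 57500 CPM with FLT, with 8 of 9 called lower against d4T and 4 against FLT. The part of these tissues and stages in the differences was not tested.

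Within an exposure, no member was called between 72h and 24h. *hsp-16.2* and *hsp-16.41* were higher at 72h than at 24h with AZT by log2 differences of 2.14 (95% interval 0.61 to 3.67; edgeR adjusted p = 0.014) and 2.34 (0.61 to 4.07; edgeR adjusted p = 0.018), and all AZT 72h libraries lay above all AZT 24h libraries for both genes. DESeq2 called both, while 50.7% of all genes differed by edgeR between the times with AZT. With FLT the differences were 1.53 (0.16 to 2.90) for *hsp-16.2*, 1.56 (0.02 to 3.10) for *hsp-16.41*, 3.51 for F44E5.4 and 3.02 (1.06 to 4.97) for F44E5.5, where 36.1% of all genes were called. *hsp-16.2*, *hsp-16.41* and F44E5.5 were higher at a raw p under 0.05 with FLT and DESeq2 called F44E5.5. Without FLT 72h replicate 1 no member had a raw p under 0.05, and the differences were 0.64, 0.65, 2.03 and 1.61 in the same order of genes. With d4T (23.3% of all genes called), DMSO (33.1%) and no exposure (17.7%), none of the 4 had a raw p under 0.05 and DESeq2 called 0.

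The effect of an analogue against DMSO at 72h less that at 24h was also tested. For *hsp-16.2* this difference was 2.68 with AZT (95% interval 0.59 to 4.77; edgeR adjusted p = 0.024), 0.72 with d4T (-1.24 to 2.68; edgeR adjusted p = 0.66) and 2.07 with FLT (0.09 to 4.05; edgeR adjusted p = 0.13). edgeR called 0 of the 4 members for AZT (53% of all genes called), d4T (8.01%) and FLT (9.73%). At a raw p under 0.05 there were 2 for AZT and 0 for d4T, and *hsp-16.2* and F44E5.5 for FLT. Without FLT 72h replicate 1 the difference with FLT was 1.18 for *hsp-16.2*. With 1 library left out that of F44E5.5 was 2.58 to 4.82. DESeq2 called 0 members for AZT and d4T and, for FLT, none of *hsp-16.2*, *hsp-16.41* and F44E5.5.

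DMSO itself left no called member. Between DMSO and unexposed nematodes, the log2 difference for *hsp-16.2* was -0.24 at 72h (95% interval -1.67 to 1.18) and 0.20 at 24h (-1.22 to 1.62), and for *hsp-16.41* it was -0.28 (-1.84 to 1.27) and 0.19 (-1.39 to 1.76). For F44E5.5 it was -0.36 (-3.01 to 2.29) and -0.94 (-3.17 to 1.28), and for F44E5.4 0.19 at 24h (-2.60 to 2.98), while at 72h F44E5.4 had 0, 0 and 0 counts with DMSO and 4, 5 and 0 in unexposed nematodes. None of the 4 members had a raw p under 0.05 at either time, and DESeq2 called 0, where edgeR called 11.7% of all genes at 72h and 12.6% at 24h.

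The order of the 10 group means was nearly the same for both small heat shock protein genes. *hsp-16.2* ran through FLT 72h (26.7 CPM), d4T 72h (13.4), d4T 24h (11.8), FLT 24h (9.23), AZT 72h (6.25), DMSO 24h (4.02), unexposed 24h (3.48), unexposed 72h (3.26) and DMSO 72h (2.75) to AZT 24h (1.35 CPM). For each gene the ranges of 8 of the 9 neighbouring pairs in this order overlapped, the exception being DMSO 72h and AZT 24h at the low end. When FLT 72h replicate 1 was left out, the FLT 72h mean of *hsp-16.2* was 14.5 CPM, still the highest. For *hsp-16.41* the highest mean was then that with d4T at 72h, at 17.1 CPM. For F44E5.5 the highest mean was that with FLT at 72h (1.94 CPM) and the lowest that with AZT at 72h (0.0616 CPM), and for both Hsp70 genes all 9 neighbouring pairs overlapped. Per kilobase of exon, the mean level with FLT at 72h was 50.3 CPM for *hsp-16.41*, 46.1 CPM for *hsp-16.2*, 0.927 CPM for F44E5.5 and 0.816 CPM for F44E5.4.

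Members of a head-to-head pair followed each other from library to library. Across the 30 libraries the Pearson correlation of log2 CPM was 0.960 for *hsp-16.2* and *hsp-16.41* and 0.801 for F44E5.4 and F44E5.5, and 0.683 to 0.756 between a gene of one pair and a gene of the other. These are descriptions over libraries that share groups, lanes and depth, and the Hsp70 pair may also share reads.

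The share of *hsp-16.41* in the reads of both small heat shock protein genes had a median of 55.5% over the libraries (34.2 to 66.9%). At 72h it was 52.0 to 57.1% with FLT, 54.3 to 60.9% with d4T and 52.0 to 56.0% with AZT, against 59.5 to 66.0% with DMSO and 57.2 to 66.7% in unexposed nematodes. The FLT and AZT libraries lay below all DMSO libraries. The mean share was 8.0 points lower with FLT (54.7 ± 2.6% against 62.6 ± 3.3%) and 8.7 points lower with AZT (53.9 ± 2.0%; SD, n = 3 each), with an exact two-sided permutation p = 0.10 for each, the smallest that 3 against 3 libraries allow. Over the 6 comparisons with DMSO at both times the adjusted p was 0.30 for these and higher for the others. The lowest share, 34.2% (exact 95% binomial interval 25.6 to 43.7%, from 114 reads), was in d4T 24h replicate 2, the library that stood apart.

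**Figure D4:**
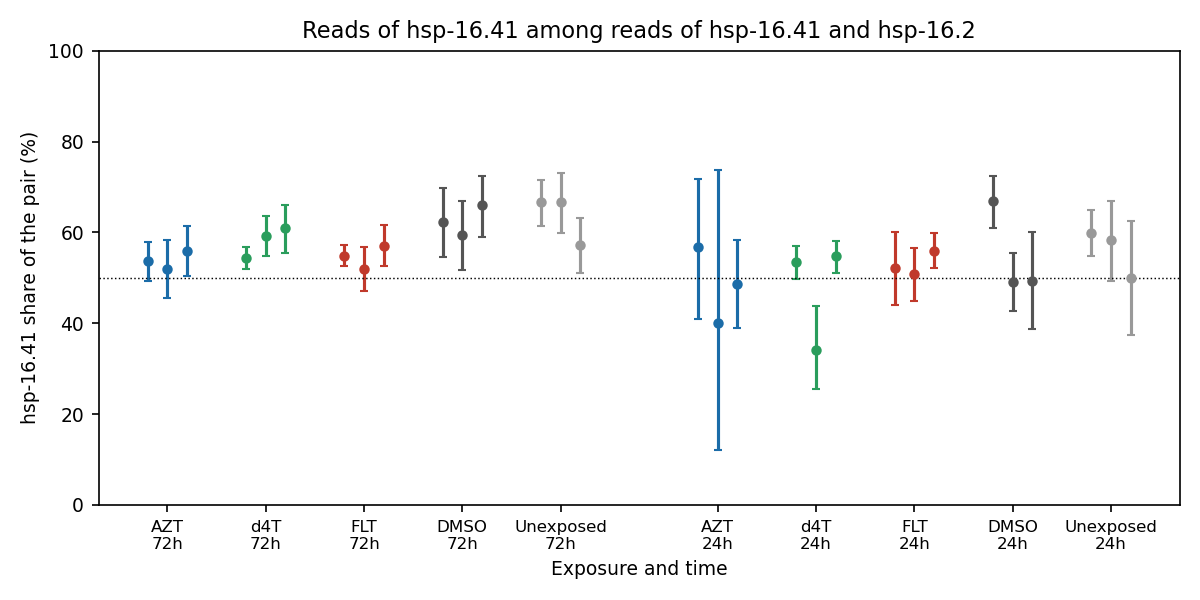
Share of *hsp-16.41* among the reads of *hsp-16.41* and *hsp-16.2* in each library, in percent, with exact 95% binomial intervals for counting error only; the dotted line marks equal reads. At 72h the FLT and AZT libraries lie between 52.0 and 57.1% and the DMSO libraries between 59.5 and 66.0%.

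Genes outside the set were ranked by how closely they followed the members. Among 12656 genes with a mean of at least 1 CPM, the highest Pearson correlations over the 30 libraries with the mean z-score of the 4 tested members were those of K01C8.2 (WBGene00010457, 0.796), *ift-139* (WBGene00022696, 0.782), *trhr-1* (WBGene00016265, 0.773), *dpsm-1* (WBGene00012216, 0.742) and *osg-1* (WBGene00019832, 0.738). The 99th percentile of all genes was 0.58. These 5 genes had mean levels of 2.32 to 8.43 CPM, and none belongs to the chaperone lists used here.

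*hsf-1* and other genes listed with it, some of them known to act on HSF-1, were also tested. *hsf-1* stood at 83.0 ± 12.06 CPM with AZT and 128 ± 3.33 CPM with DMSO at 72h (SD, n = 3 each), and fell by 0.62 on the log2 scale (edgeR adjusted p = 0.0096). With FLT at 72h it stood at 116 ± 16.7 CPM (log2 ratio to DMSO -0.14; edgeR adjusted p = 0.69). *hsb-1*, which encodes a protein that binds HSF-1 and holds it back, fell with AZT and d4T at 72h to 80.7 ± 12.4 and 97.1 ± 6.61 CPM, against 184 ± 11.9 CPM with DMSO (SD, n = 3 each), while unexposed nematodes had 96.5 ± 8.38 CPM. *ddl-1*, whose product forms an inhibitory complex with HSF-1, fell with AZT to 16.9 ± 3.10 CPM and with d4T to 26.6 ± 0.496 CPM, against 51.3 ± 2.29 CPM with DMSO and 24.2 ± 0.765 CPM in unexposed nematodes (SD, n = 3 each). *hpk-1*, a homeodomain-interacting kinase gene, rose with AZT (80.6 ± 4.38 CPM) and d4T (63.7 ± 3.72 CPM) at 72h, against 32.4 ± 0.356 CPM with DMSO and 57.9 ± 7.65 CPM in unexposed nematodes (SD, n = 3 each). It fell with AZT at 24h (45.5 ± 4.39 CPM, against 86.8 ± 14.3 CPM with DMSO and 49.45 ± 5.96 CPM in unexposed nematodes, SD, n = 3 each).

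Of these 7 genes, 1 rose and 3 fell with AZT at 72h (median log2 ratio -0.39, against 0.36 over all genes tested), where 27.2% of all genes were called higher and 21.6% lower. With d4T 1 rose and 2 fell (median -0.08, against 0.17), where 5.82% were called higher and 5.86% lower. The 3 falls with AZT became 2 when any 1 library but AZT 72h replicate 2 was left out, and the 2 falls with d4T became 1 when any 1 of the 6 libraries was. With FLT edgeR called 0 of the 7 at 72h, with 2 higher and 1 lower at a raw p under 0.05 and 0 called by DESeq2 (median -0.12, against 0.01). At 24h *hpk-1* fell with AZT and *ddl-2*, a further partner in the DDL-1 complex, fell with FLT to 6.32 ± 1.92 CPM, against 11.04 ± 1.20 CPM with DMSO (SD, n = 3 each). The medians were 0.14 with AZT and -0.09 with FLT, against -0.02 and 0.15 over all genes. With d4T at 24h edgeR called 0, with 0 at a raw p under 0.05 and 0 by DESeq2, while 2 fell without d4T 24h replicate 2. *pqm-1* and the pseudogene *hsf-2* were not called in any of the 6 comparisons with DMSO. Scaled by library totals, 2 genes were called higher and 2 lower with AZT at 72h. Against unexposed nematodes 0 rose and 1 fell with AZT at 72h, where 18.6% of all genes were called higher and 13.2% lower. With d4T at 72h and AZT at 24h 0 of the 7 were called against unexposed nematodes, and with FLT at 24h 1 was called lower. Between DMSO and unexposed nematodes, 2 were called higher and 1 lower with DMSO at 72h, and 1 higher at 24h. Over all genes 5.71% were called higher and 6.01% lower there at 72h, and 9.01% higher at 24h. The fall of *ddl-2* was lost without DMSO 24h replicate 2 or 3 or FLT 24h replicate 2 or 3, and that of *hpk-1* without DMSO 24h replicate 1 or AZT 24h replicate 1 or 2.

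Small heat shock protein genes outside the set were described in the same way. Of 10 such genes, 3 rose and 1 fell with AZT at 72h (median log2 ratio 0.55, against 0.36 over all genes), where 27.2% of all genes were called higher, and with library totals 5 were called higher and 1 lower. *hsp-43* rose to 382 ± 45.2 CPM with AZT, against 97.1 ± 19.1 CPM with DMSO, *hsp-12.1* to 20.0 ± 4.68 CPM, against 4.11 ± 0.385 CPM, and *hsp-12.2* to 21.4 ± 3.20 CPM, against 7.20 ± 1.04 CPM (SD, n = 3 each). *sip-1*, a small heat shock protein gene of oocytes and embryos, fell to 366 ± 44.1 CPM with AZT and 668 ± 91.4 CPM with d4T at 72h, against 1878 ± 193 CPM with DMSO (SD, n = 3 each). The summed oocyte and germline markers were 2640 to 3700 CPM with AZT and 5240 to 5890 CPM with d4T, against 8600 to 8860 CPM with DMSO, and their part in this fall was not tested. The fall of *sip-1* with d4T lost its call without d4T 72h replicate 2. With FLT at 72h edgeR called 0 of the 10, with 1 lower at a raw p under 0.05 and 0 called by DESeq2. Against unexposed nematodes at 72h, 5 of the 10 were called higher and 1 lower with AZT, where 18.6% of all genes were called higher and 13.2% lower. With d4T and FLT 0 of the 10 were called against unexposed nematodes at 72h, where 0.206% and 12.5% of all genes were. At a raw p under 0.05, 5 of the 10 were higher there with d4T, and with FLT 2 were higher and 1 lower.

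At 24h *hsp-12.2* rose with d4T (19.4 ± 10.2 CPM) and FLT (14.1 ± 6.12 CPM), against 3.999 ± 1.19 CPM with DMSO (SD, n = 3 each). *hsp-12.1* rose with FLT to 17.5 ± 11.5 CPM, against 5.47 ± 0.521 CPM with DMSO. *hsp-12.3* fell with AZT to 2.07 ± 1.402 CPM, against 12.98 ± 7.34 CPM with DMSO (SD, n = 3 each). Medians over the 10 genes were -0.40 with AZT, 0.43 with d4T and 0.58 with FLT, against -0.02, 0.02 and 0.15 over all genes. In fits of the compared groups alone no gene of this list was called with d4T or FLT at 24h, and without d4T 24h replicate 2 the list had 4 called higher with d4T. The fall of *hsp-12.3* was lost without DMSO 24h replicate 1 or AZT 24h replicate 1 or 2, and 1 of the 2 calls with FLT without any 1 DMSO 24h library or FLT 24h replicate 3. Against unexposed nematodes at 24h, 0 of the 10 were called with AZT, where 0.704% of all genes were called. There 4 were called higher with d4T and 5 with FLT, where 19.5% and 17.2% of all genes were.

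Constitutive cytosolic chaperones, among them the Hsp70 *hsp-1*, the Hsp90 *hsp-90* and the 8 subunits of the CCT chaperonin, had no gene called higher in the 6 comparisons with DMSO. Of 22 genes, 13 fell with FLT at 24h (median log2 ratio -0.71, against 0.15 over all genes), where 9.39% of all genes were called lower, and 8 with AZT at 72h (median -0.53, against 0.36), where 21.6% were. Summed oocyte and germline markers were 1100 to 2550 CPM with FLT at 24h, against 3320 to 5260 CPM with DMSO, with 6 of 12 called lower, and 10 of 12 were called lower with AZT at 72h. Their part in these falls was not tested. The falls with AZT at 72h were not called when unexposed nematodes took the place of DMSO. There 0 of the 22 were called, with 8 lower at a raw p under 0.05 (median -0.365), where 13.2% of all genes were called lower. With FLT at 24h 16 of the 22 were called lower against unexposed nematodes (median -0.793). *cct-8* fell with FLT at 24h to 109 ± 19.04 CPM, against 248 ± 18.9 CPM with DMSO, *cct-3* to 184 ± 31.0 CPM, against 356 ± 16.19 CPM, and the DnaJ gene *dnj-13* to 151 ± 22.02 CPM, against 273 ± 7.38 CPM (SD, n = 3 each). *hip-1*, an Hsp70-interacting protein gene, fell with AZT at 72h to 174 ± 14.2 CPM, against 367 ± 3.77 CPM with DMSO, the nucleotide exchange factor gene *bag-1* to 84.0 ± 26.6 CPM, against 186 ± 8.93 CPM, and *cct-6* to 213 ± 27.4 CPM, against 382 ± 15.03 CPM (SD, n = 3 each).

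*hip-1* was the 1 of the 22 that was called with FLT at 72h, at 190 ± 29.3 CPM against 367 ± 3.77 CPM with DMSO (SD, n = 3 each), and the median was -0.03, against 0.01 over all genes. The log2 ratio to DMSO was -0.01 for *hsp-1* (95% interval -0.41 to 0.40; edgeR adjusted p = 0.99) and 0.22 for *hsp-90* (-0.23 to 0.66; edgeR adjusted p = 0.55). *hip-1* also fell with d4T at 72h (227 ± 19.3 CPM, median of the list -0.20 against 0.17 over all genes), a call that was lost with any 1 of the 6 libraries left out, while a fit of these groups alone called 3 of the 22 higher and 10 lower with d4T. edgeR called 0 of the 22 with AZT at 24h (median 0.42, 15 higher at a raw p under 0.05), where DESeq2 called 3 higher and a fit of these groups alone 10. With d4T at 24h edgeR called 0 (median -0.02, 0 at a raw p under 0.05, 0 by DESeq2), and 8 fell without d4T 24h replicate 2. The 8 called lower with AZT at 72h became 12 with RLE scaling, 13 with DESeq2 and 15 in a fit of these groups alone, whereas library totals gave 4 lower and 2 higher. Without AZT 72h replicate 1, the library with most ribosomal RNA, 3 were lower. The 13 called with FLT at 24h became 6 without DMSO 24h replicate 2, 7 without DMSO 24h replicate 3 and 7 without FLT 24h replicate 3.

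Among 6 chaperone genes of the mitochondria and the endoplasmic reticulum, *hsp-6*, the mitochondrial Hsp70, rose with FLT at 72h to 999 ± 134 CPM, against 510 ± 49.6 CPM with DMSO (SD, n = 3 each; log2 ratio 0.97; edgeR adjusted p = 0.0047). The call of *hsp-6* did not survive the omission of any 1 of the 6 libraries. *hsp-3*, an Hsp70 of the endoplasmic reticulum, rose with AZT (720 ± 117 CPM) and d4T (669 ± 57.0 CPM) at 72h, against 428 ± 22.8 CPM with DMSO, and the mitochondrial DnaJ gene *dnj-10* fell with AZT (57.6 ± 9.37 CPM, against 93.7 ± 3.09 CPM with DMSO, SD, n = 3 each). *hsp-4*, the BiP gene of the unfolded protein response, fell with FLT at 24h to 179 ± 17.7 CPM, against 300.2 ± 41.8 CPM with DMSO, and *enpl-1* to 440.1 ± 99.2 CPM, against 685 ± 48.4 CPM (SD, n = 3 each). The call of *hsp-3* with d4T was lost when any 1 library but d4T 72h replicate 3 was left out, and with library totals the 2 calls with FLT at 24h and that of *dnj-10* were lost. edgeR called 0 of the 6 with AZT and d4T at 24h, with 2 and 0 at a raw p under 0.05 and 0 by DESeq2, and without d4T 24h replicate 2 there were 3 called lower with d4T. List medians ran between -0.49 (FLT at 24h) and 0.24 (AZT at 24h). Against unexposed nematodes at 72h, 0 of the 6 were called with AZT or d4T, and with FLT 1 was called higher and 1 lower. Over all genes 31.8% were called there with AZT, 0.206% with d4T and 12.5% with FLT. With FLT at 24h 1 of the 6 was called lower against unexposed nematodes.

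**Figure D5:**
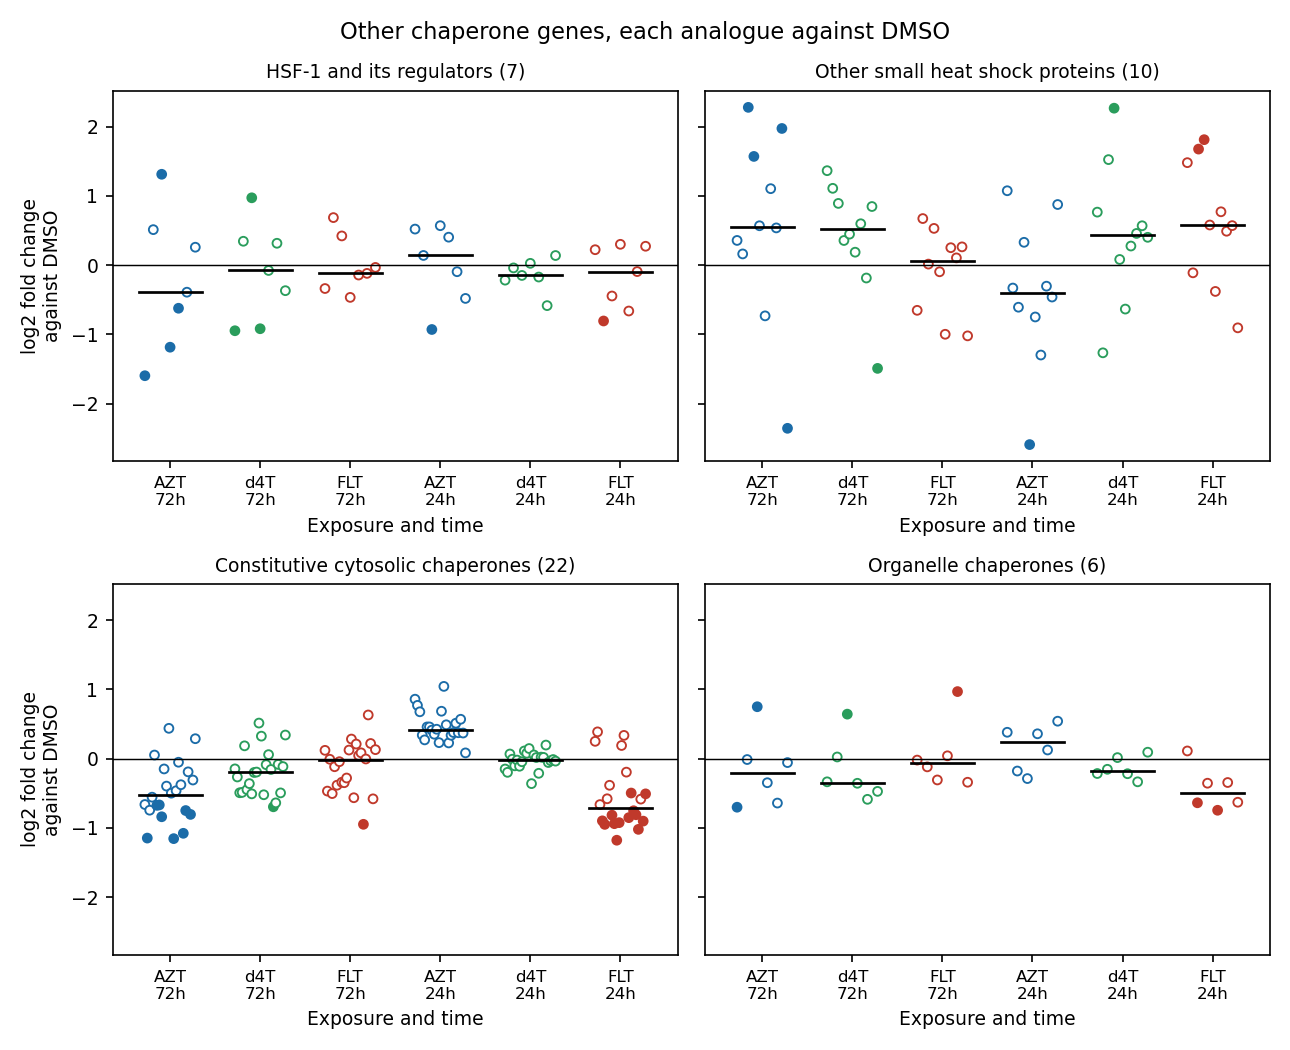
Log2 fold change against DMSO of every gene of 4 lists, by analogue and time, where each point is a gene, filled points were called at an adjusted p under 0.01 and bars are list medians. Points of the 22 constitutive cytosolic chaperones lie mostly below 0 with FLT at 24h (median -0.71) and around 0 with FLT at 72h (median -0.03).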

How the data were processed

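RNA of whole nematodes was sequenced on Illumina TruSeq libraries. Per the methods and the submitters' processing notes, the authors trimmed reads with Trimmomatic 0.32, aligned them to WBcel235 with TopHat2 2.0.8 and Bowtie2 2.1.0 and counted them per gene with HTSeq. The deposited values are these raw counts per gene, and 5 further entries per library that name no gene (10.5 to 26.5% of reads, median 14.5%) were left out. Whether the counting used strand is not given in the sources used here, so that reads of a gene and an overlapping gene on the other strand cannot be separated.

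A single edgeR model (version 4.0.16, run under R 4.3.3) held the 10 groups, 3 libraries each (filterByExpr with minimum count 10 and minimum total 15, TMM, glmQLFit robust, glmQLFTest, two-sided), and p-values were adjusted over 16048 genes per comparison. The threshold of 0.01 follows the study, which used DESeq. Fits were tested on simulated data. Log2 CPM for correlations carry a prior count of 2, and intervals are 95%. Gene names and coordinates come from the Ensembl and RefSeq annotations of WBcel235. Named genes are all members, the 7 genes of the *hsf-1* list and the 5 genes most like the members. Of each other chaperone list, up to 3 called genes of lowest adjusted p per direction and comparison with DMSO are also named. *hsp-1* and *hsp-90* fall outside this rule and were named after their values were seen. Members, lists and tests were chosen with earlier results of these data known. Alternatives were DESeq2 1.42.0, scaling by RLE or by totals, omission of the filter, a block for replicate numbers, fits of only the groups compared, the unexposed control in place of DMSO, summed copies, and each replicate left out. Tissue and stage markers were 12 of oocytes and germline, 12 of moulting larvae, 10 of embryos, 10 of sperm, 9 of intestine and 8 of muscle, as summed CPM. Replicates are separate cultures per the study.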

Additional observations from a re-analysis of the deposited data

How the results depend on the processing

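Among the comparisons with DMSO, *hsp-16.2* and F44E5.5 were called with FLT at 72h. Each kept its call in 2 of the 6 fits with 1 library left out. F44E5.4 passed the filter only through FLT at 72h and is left out here in comparisons with that group, except where its inclusion is stated. With AZT at 72h, 1 member was called when only the groups compared were fitted, and with d4T at 72h 1 (*hsp-16.2*) when libraries were scaled by their totals. The call of *hsp-16.2* with FLT was lost without the filter (edgeR adjusted p = 0.013). Between AZT and FLT at 72h, F44E5.5 was called, and it kept its call in 6 of 6 other fits and in 5 of 6 with 1 library left out. Counts of called members in this pair include F44E5.4, so they are a description only. They were 2 in the main fit, 1 with library totals, 1 without the filter and 1 with copies summed. They were 4 in a fit of these groups alone and 0 to 3 with 1 library left out. Between AZT and d4T at 24h, 2 were called, 1 without the filter, 0 in a fit of these groups alone and 0 to 2 with 1 library left out, and between AZT and FLT at 24h 2, 0 without the filter and 0 to 2 with 1 library left out. Between 72h and 24h, 2 were called with AZT by library totals, with the replicate block, with these groups alone and with DESeq2, where the edgeR fit called 0. With FLT, F44E5.5 was not called, as in 2 of 6 other fits and in 5 of 6 with 1 library left out. *hsp-16.2* and *hsp-16.41* were not called with FLT in 7 of 7 other fits and 6 of 6 with 1 library left out. For the effect at 72h less that at 24h, 2 members were called for AZT with these groups alone. The cause of these changes was not tested. No direction turned among the 31 log2 fold changes with a raw p under 0.05.

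The replicate block applied numbers that did not pair the libraries (19 of 135 correlations of same-numbered deviations exceeded 0.1, range -0.435 to 0.555). Library totals moved the median of all genes by 0.31 for AZT, 0.27 for d4T and 0.13 for FLT at 72h and by 0.18 for FLT at 24h, and RLE scaling by -0.12 for AZT at 72h. Depth limits the Hsp70 pair, which had 0 to 67 counts per library.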
